A study of Mus musculus with 4 samples.

Results

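Ccl5-low iNKT1 cells are thymic invariant natural killer T (iNKT) cells that hold transcripts of the natural killer and type 1 programme but few or none of the effector genes Ccl5 and Gzma. They were chosen on raw UMI counts, each UMI being 1 tagged mRNA molecule. A cell with at least 500 genes, at least 1000 UMIs and at most 10% mitochondrial UMIs was kept. A kept cell was gated as iNKT1 if Nkg7, Klrd1, Il2rb, Klrk1 and Xcl1 together had at least 8 UMIs and more than 2 times the UMIs of the iNKT2 genes Zbtb16, Il17rb, Izumo1r, Plac8 and Icos. Summed limits of under 6 UMIs for iNKT17 genes, under 4 for proliferation genes and under 8 for interferon-response genes kept other states out. Gated cells with under 4 UMIs of Ccl5 and Gzma together are the Ccl5-low cells, and those with 4 or more are called Ccl5-high here. The rule took 5434 of 15767 kept cells, out of 16320 deposited barcodes. There were 146 in the library BALB/c 1, 318 in BALB/c 2, 995 in B6 1 and 3975 in B6 2, and 4 values in a row below follow that order. The Ccl5-high cells numbered 117, 221, 279 and 830.

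The libraries came from thymocytes of BALB/c and B6 mice, both inbred strains with no treatment or engineered allele named, sorted as CD3+ cells that bind the CD1d tetramer loaded with PBS57. Each strain has 2 libraries, and no label gives age, sex or the number of mice, so p-values measure the spread between libraries, which may be technical. Deposited totals were 23124810 and 22798414 UMIs in BALB/c, against 20406245 and 82904358 in B6. The median Ccl5-low cell had 6531.5 and 7018 UMIs in BALB/c, against 6966 and 6864 in B6. Summed over cells, the Ccl5-low sets held 965003 and 2308103 UMIs in BALB/c against 7080204 and 28488499 in B6, so BALB/c values carry more counting error. B6 2 was counted with another version of Cell Ranger (7.1.0) than the other 3 libraries (6.0.0), per the file headers, and effects of the library and of the version cannot be told apart. Of the Ccl5-low cells, 2, 9, 17 and 28 had a barcode that another library also holds.

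Invariant NKT cells carry a near-fixed T cell receptor alpha chain that recognises lipids on CD1d, and they mature in the thymus into iNKT1, iNKT2 and iNKT17 sublineages. iNKT1 cells depend on the T-box factor T-bet (Tbx21), make interferon-gamma and acquire natural killer receptors. Part of them stay in the thymus as residents, while cells that leave switch on Klf2 and its target S1pr1, the receptor that guides lymphocytes out of the organ. Granzyme A (Gzma) and the chemokine CCL5 belong to the effector genes of such lymphocytes.

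Genes that the rule did not use went with the iNKT1 label. Tbx21 stood at 169 and 153 CPM in BALB/c and 157 and 194 CPM in B6 Ccl5-low cells (CPM, the summed UMIs rescaled to a common total, without further scaling). In cells gated the other way, with iNKT2 genes in excess, it was at 7.63 and 5.42 CPM in BALB/c and 38.7 and 51.1 CPM in B6. The T cell signalling chain Cd3e was at 1549 and 1627 CPM in BALB/c and 1384 and 1427 CPM in B6 Ccl5-low cells. Il13, a type 2 cytokine, had 0 UMIs in both BALB/c sets and was at 0.283 and 0.421 CPM in B6. Among markers of other cells, the B cell gene Ms4a1 was at 0 UMIs in all 4 Ccl5-low sets, and haemoglobin genes were at 0 to 1.04 CPM. Other lists were not at 0. The 5 B cell markers summed to 88.1, 86.2, 173 and 178 CPM, and the 5 myeloid markers to 206, 229, 147 and 139 CPM. Gamma-delta T cell markers summed to 272, 162, 184 and 171 CPM, and regulatory T cell markers to 69.4, 59.4, 54.9 and 99.3 CPM. Markers of early iNKT cells (iNKT0) summed to 277, 236, 235 and 257 CPM. The source of these UMIs was not tested. BALB/c 1 stood apart for the CD8 genes. Cd8a and Cd8b1 summed to 137 and 45.5 CPM in BALB/c and 33.8 and 23.8 CPM in B6. The 6 double-positive thymocyte markers, Cd8b1 among them, summed to 87.0 and 28.6 CPM in BALB/c and 34.0 and 30.5 CPM in B6. In BALB/c these sums were mostly Cd8b1 (83.1 and 29.2 CPM, scaled as below, against 20.8 and 12.6 CPM in B6). Of the other markers, Rag1, Ptcra and Arpp21 had 0 UMIs in BALB/c 1, and all of them in BALB/c 2. In B6 1 only Ptcra had 0 UMIs, and in B6 2 none had. Leaving out cells with 2 or more UMIs of other cells' markers, which took 0 and 1 BALB/c and 11 and 33 B6 Ccl5-low cells, moved no count of changed genes by more than 1.5 times.

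Ccl5-low cells took a smaller share in both BALB/c libraries than in both B6 libraries. Ccl5-low cells made up 7.70% and 16.3% of kept BALB/c cells (95% Clopper-Pearson intervals 6.54 to 8.99 and 14.7 to 18.1), against 41.8% and 41.6% of kept B6 cells (39.8 to 43.9 and 40.6 to 42.6). BALB/c libraries averaged 12.0% ± 6.10 and B6 libraries 41.7% ± 0.142 (SD, n = 2 each), a difference of -29.7 percentage points. The groups did not overlap, but the exact two-sided permutation p was 0.333, the smallest that 2 against 2 libraries allow. Among gated iNKT1 cells alone the Ccl5-low share was 55.5% and 59.0% in BALB/c, against 78.1% and 82.7% in B6 (57.3% ± 2.46 and 80.4% ± 3.27, difference -23.2 points, exact permutation p = 0.333). The cut fell in a sparse stretch of the distribution. Cells with exactly 3 UMIs of Ccl5 and Gzma, just inside, numbered 6, 13, 33 and 104, and those with 4, just outside, 3, 5, 24 and 71. Cells with 0 such UMIs numbered 126, 253, 783 and 3216, and the median Ccl5-high cell had 51, 37, 21 and 18. The intervals cover counting error only.

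**Figure D1:**
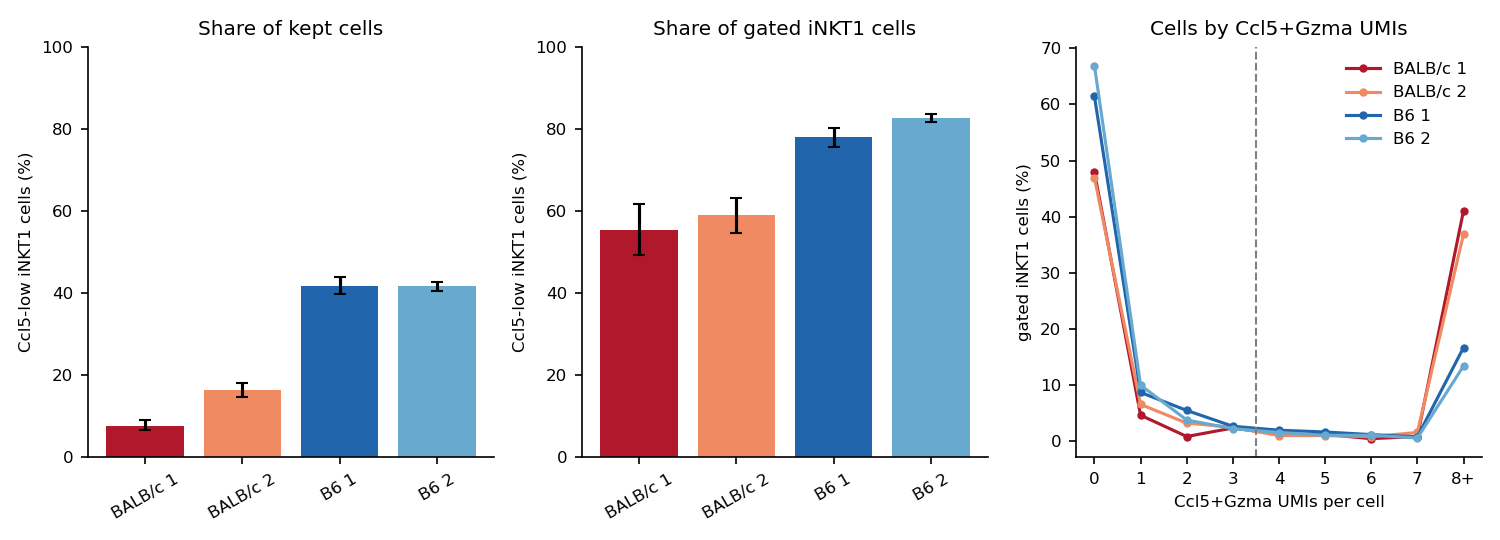
Left and middle, the percentage of Ccl5-low iNKT1 cells among kept cells and among gated iNKT1 cells in each library, with 95% Clopper-Pearson intervals; right, the percentage of gated iNKT1 cells at each number of Ccl5+Gzma UMIs, with the cut between 3 and 4 dashed. Both BALB/c bars lie below both B6 bars, and in every library more cells hold 0 UMIs than any number from 1 to 7.

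Ccl5-low cells were then set against Ccl5-high cells of the same libraries. Sums of UMIs per library and subset were compared by edgeR's quasi-likelihood test with the library as a block (n = 4 libraries), and CPM below are scaled by TMM factors of the respective fit. Of 9120 genes tested, 1117 passed an adjusted p of 0.05 (12.2%), 522 higher in Ccl5-low cells (5.72%) and 595 lower (6.52%). Outside the genes of the gate, 517 were higher and 589 lower, and the median log2 change over all genes was 0.01. Any gene that varies with Ccl5 or Gzma from cell to cell will differ here, since these genes made the split; the test asks only whether the difference repeats across libraries.

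The lineage factor itself did not separate the subsets. Tbx21 averaged 166 ± 11.7 CPM in Ccl5-low and 163 ± 20.8 CPM in Ccl5-high cells (SD, n = 4), a log2 difference of 0.01 (SE 0.05, edgeR adjusted p = 0.956). Gata3, which drives type 2 differentiation, differed by -0.05 (SE 0.07, adjusted p = 0.742), and the effector and residency factors Bhlhe40 and Prdm1, which encodes Blimp-1, by 0.08 each (SE 0.09 and 0.21; adjusted p = 0.718 and 0.913).

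Many transcription factors of T cells were higher in Ccl5-low cells. Of 29 lineage and T cell transcription factors tested, 14 were higher, 2 were lower and 13 did not pass, with a median log2 change of 0.24. Maf, a factor that promotes Il4 transcription in helper T cells, was at 104, 97.2, 96.0 and 84.2 CPM in Ccl5-low cells, against 53.7, 42.8, 49.8 and 51.4 CPM in Ccl5-high cells. The 4 Ccl5-low values lay above all 4 Ccl5-high values, and the log2 change was 0.85 (SE 0.08, edgeR adjusted p = 1.71e-08). Tox, needed for the CD4 lineage in the thymus, was higher by 0.85, with 56.4, 46.0, 60.1 and 170 CPM in Ccl5-low against 19.7, 19.6, 40.5 and 94.9 CPM in Ccl5-high cells. B6 2 had the highest Tox in both subsets, so the groups overlapped across libraries while each library showed the same direction. Ikzf2, which encodes Helios, rose by 0.79, Runx1 by 0.70, Lef1, a partner of Wnt signalling in early thymocytes, by 0.56 and the chromatin organiser Satb1 by 0.45. The E-protein inhibitors moved together, Id3 by 0.75 and Id2 by 0.38.

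Residency and maturation factors went in both directions. Zfp683, the gene of the residency factor Hobit, was at 101, 98.5, 278 and 251 CPM in Ccl5-low cells and 87.8, 68.7, 185 and 186 CPM in Ccl5-high cells. It was higher in all 4 libraries (log2 change 0.48, SE 0.06, adjusted p = 7.8e-07). Hopx, a cofactor of effector T cell persistence, was lower in all 4, by -0.86 (SE 0.06; 201 ± 78.1 against 382 ± 87.4 CPM). Of the 13 genes tested on the residency and maturation list, 2 were higher and 6 lower.

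Genes of thymic egress and homing were mostly lower in Ccl5-low cells, 13 of 20 tested against 4 higher, with a median log2 change of -0.44. Klf2 (ENSMUSG00000055148, GRCm38 chromosome 8: 72319033 to 72321656), the factor that opens the exit programme, was at 215, 341, 159 and 135 CPM in Ccl5-low cells, against 1072, 1302, 675 and 623 CPM in Ccl5-high cells. Every Ccl5-low value lay under every Ccl5-high value, and the level was 4.35-fold lower (log2 change -2.12, SE 0.05, edgeR adjusted p = 2.44e-20). S1pr1, its target receptor, was at 3.08, 2.21, 7.17 and 4.09 CPM, against 30.1, 24.5, 16.1 and 19.95 CPM in Ccl5-high cells (-2.14, SE 0.22). The integrin subunits Itga4, Itgb1 and Itgb7, which carry lymphocytes into tissues, were lower by -1.73, -0.93 and -0.67. The list also holds genes of tissue retention, and Itga1, Itgae and Cxcr6 among them, chosen after their values were seen, were lower too, by -0.58, -0.34 and -0.38. Cxcr3, the chemokine receptor typical of type 1 lymphocytes, was higher by 0.32 in all 4 libraries. Ccr7, which guides naive and immature T cells, was higher by 1.40 (adjusted p = 0.0438), at 23.6, 8.39, 5.17 and 1.42 CPM against 0, 5.61, 0.976 and 1.23 CPM. That value fell to 0.82 (adjusted p = 0.241) without BALB/c 1, the library with the highest Ccr7 in Ccl5-low cells. It did not pass with DESeq2 (adjusted p = 0.181) or without B6 1 (adjusted p = 0.203). In cells thinned to 4000 UMIs, Ccr7 was seen in 6.15%, 1.33%, 0.773% and 0.495% of Ccl5-low cells. In thinned cells gated as iNKT2 it was seen in 26.9%, 24.3%, 22.3% and 18.1%. The source of Ccr7 in the Ccl5-low sets was not tested.

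Klf2 was graded within the gate. At 0, 1 and 2 or 3 UMIs of Ccl5 and Gzma, the 3 steps inside the Ccl5-low set, Klf2 stood at 122, 194 and 301 CPM in B6 2 and at 124, 250 and 303 CPM in B6 1 (unscaled). It was at 272, 540 and 616 CPM in BALB/c 2 and at 207, 176 and 459 CPM in BALB/c 1, where the later steps rest on 12 and 8 cells. Over the same 3 steps Tbx21 stood at 191, 208 and 194 CPM in B6 2 and at 157, 154 and 159 CPM in B6 1. It was at 153, 114 and 194 CPM in BALB/c 2 and at 176, 138 and 99.8 CPM in BALB/c 1, so it had no common order of steps across the libraries. In thinned cells of 4000 UMIs each, Klf2 was seen in 38.5%, 38.5%, 25.0% and 27.4% of Ccl5-low cells and in 89.0%, 93.0%, 77.0% and 78.8% of Ccl5-high cells (unthinned 41.8%, 44.7%, 32.4% and 34.4% in Ccl5-low against 91.5%, 95.02%, 81.0% and 85.2% in Ccl5-high cells). In the iNKT2-gated cells, whose median depth before thinning was 11121.5 to 15111.5 UMIs, it was seen in 11.8% to 14.5% of thinned BALB/c cells and in up to 23.6% of thinned B6 cells. The thinned share in B6 Ccl5-low cells was thus near the highest B6 share of iNKT2-gated cells, and a part from free RNA was not tested.

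**Figure D2:**
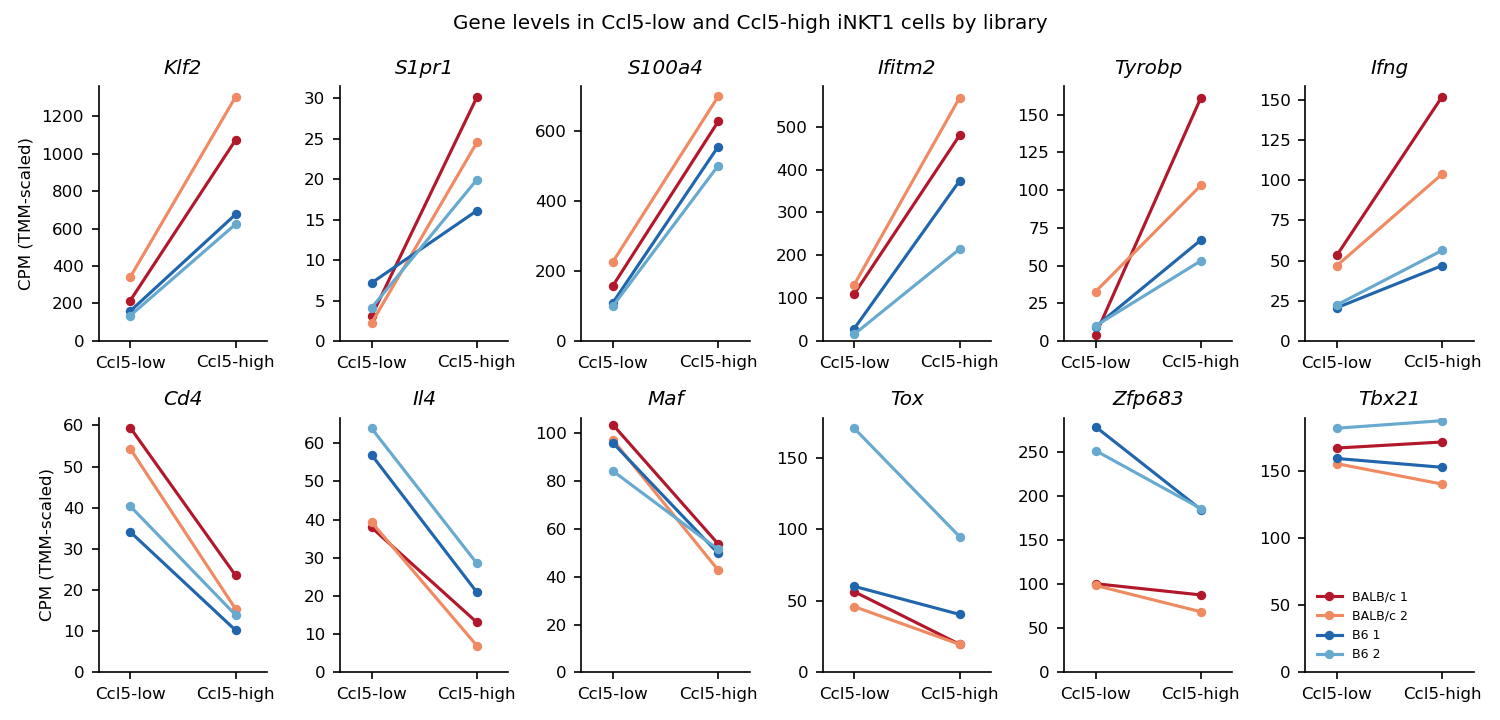
TMM-scaled CPM of 12 genes in Ccl5-low (left) and Ccl5-high (right) iNKT1 cells, with 1 line per library and axes from 0. Klf2, S1pr1, S100a4, Ifitm2, Tyrobp and Ifng are lower, and Cd4, Il4, Maf, Tox and Zfp683 higher, in the Ccl5-low cells of each library, while Tbx21 differs in 2 libraries one way and in 2 the other.

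**Figure D3:**
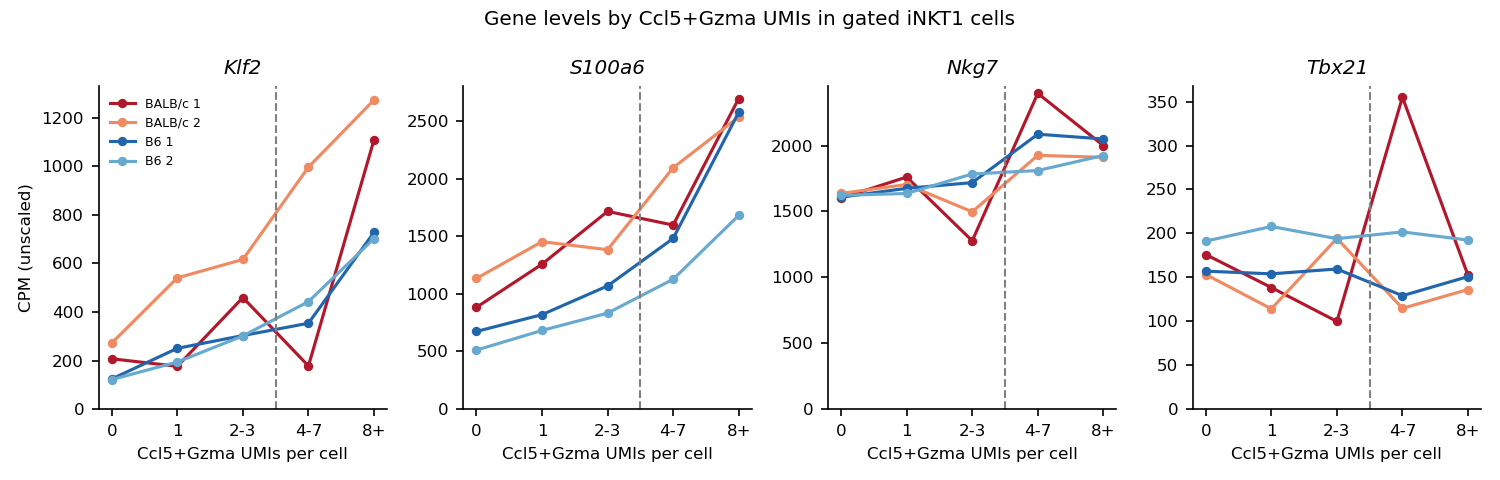
Unscaled CPM of Klf2, S100a6, Nkg7 and Tbx21 in gated iNKT1 cells by their number of Ccl5+Gzma UMIs, with 1 line per library and the cut dashed. Klf2 and S100a6 are highest at 8 or more UMIs in every library; the middle points of BALB/c 1 rest on 8 to 12 cells. Nkg7 is a gene of the gate and is shown as a description.

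Cytokine genes split between the subsets. Ifng (ENSMUSG00000055170, chromosome 10: 118441046 to 118445892), the signature iNKT1 cytokine, was at 53.3, 46.8, 20.7 and 22.4 CPM in Ccl5-low cells, against 152, 104, 46.9 and 56.3 CPM in Ccl5-high cells. It was lower in each library, by -1.29 (SE 0.08, adjusted p = 3.39e-11), although BALB/c Ccl5-low values reached the B6 Ccl5-high values. Il4 (ENSMUSG00000000869, chromosome 11: 53602982 to 53618669), the signature iNKT2 cytokine, was at 37.9, 39.3, 57.0 and 63.9 CPM, against 13.1, 7.01, 21.0 and 28.5 CPM in Ccl5-high cells. All 4 Ccl5-low values lay above all 4 Ccl5-high values (1.32, SE 0.11, adjusted p = 4.28e-09). Tnf was higher by 0.99 and the lymphotoxin chain Ltb by 0.46, whereas the chemokine Ccl4 was lower by -1.90 and the macrophage growth factor Csf1 by -0.84. In all, 5 of 10 cytokines and chemokines tested were higher and 4 lower.

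The Il4 difference moved with genes of the iNKT2 list. Of 8 iNKT2 markers outside the gate that were tested, 7 were higher, none was lower and 1 did not pass. The gate's own iNKT2 sum had a median of 2, 2, 2 and 3 UMIs in Ccl5-low cells and of 1 UMI in Ccl5-high cells of each library. Restricted to cells with at most 1 UMI of that sum in both subsets, Il4 was higher by 1.42 and Cd4 by 1.56. That restriction was chosen after seeing the data and uses a sum that the gate also used, and the part of the iNKT2 programme in these differences was not tested.

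Receptors and adaptors of natural killer cells were mostly lower, 13 of 21 tested against 2 higher (median log2 change -0.50). Tyrobp, which encodes the ITAM adaptor DAP12, was at 4.10, 32.7, 9.47 and 10.0 CPM in Ccl5-low cells, against 161, 103, 66.9 and 53.1 CPM in Ccl5-high cells. The values did not overlap (-2.48, SE 0.16, adjusted p = 7.67e-11). Fcer1g, another ITAM adaptor, was lower by -1.43, and the receptor chains Klre1 and Klrc1 by -1.08 and -0.80. Ncr1, which encodes the activating receptor NKp46, was at 0, 3.53, 0.143 and 0.066 CPM in Ccl5-low cells against 60.3, 35.8, 11.7 and 12.1 CPM in Ccl5-high cells. Cd160, a receptor for HVEM, went the other way and was higher by 0.47 in all 4 libraries. The 5 natural killer cell markers summed to 353, 418, 257 and 239 CPM in Ccl5-low cells, against 919, 907, 816 and 713 CPM in Ccl5-high cells. A part from natural killer cells in the Ccl5-high set was not tested; Trac, of the T cell receptor alpha chain, was at 274 and 357 CPM in BALB/c and 404 and 368 CPM in B6 Ccl5-high cells (unscaled). Of 8 Ly49 receptors tested, 7 were lower and 1, Klra3, was higher (0.27, in 3 of 4 libraries; named after its value was seen). These genes resemble each other closely, so single members are uncertain. Of 16 cytotoxic granule genes, 3 were higher and 5 lower, among the lower ones the pore former Prf1 (-0.81) and Gzmb (-0.53).

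Genes of T cell receptor signalling and its early response were more often higher than lower. Of 25 TCR signalling genes tested, 13 were higher and 3 lower (median log2 change 0.16). Cd4 was at 59.5, 54.3, 34.1 and 40.4 CPM in Ccl5-low cells, against 23.6, 15.4, 10.3 and 14.0 CPM in Ccl5-high cells. The values did not overlap, and the level was 3.0-fold higher (1.59, SE 0.11, adjusted p = 2.12e-10). The receptor brake Cd5 was higher by 0.60 and the TCR alpha constant gene Trac by 0.30. Among 14 genes of the early TCR response, 9 were higher and 1, Cd69, was lower (-0.39), although its level was lower in only 2 of the 4 libraries, both of B6. Egr1, an immediate early factor, was at 74.9, 44.6, 59.1 and 47.8 CPM against 11.8, 11.9, 46.9 and 25.8 CPM (0.92, SE 0.15, adjusted p = 7.34e-05). Its lowest Ccl5-low value was under the highest Ccl5-high value, so the subsets overlapped between libraries. The inhibitory receptor Pdcd1 was higher by 0.80. Of 8 SLAM receptor genes, whose products select iNKT cells in the thymus, 5 were higher and 2 lower, with Slamf6 higher by 1.41. Cd8b1, which marks double-positive thymocytes and CD8 cells, was higher by 1.51, at 83.1, 29.2, 20.8 and 12.6 CPM against 2.62, 12.6, 6.83 and 6.91 CPM. BALB/c 1 was the highest Ccl5-low library and B6 2, the lowest, reached the highest Ccl5-high value; the call did not hold with DESeq2 (adjusted p = 0.132). The double-positive markers summed to 6.37 and 12.7 CPM in BALB/c and 9.33 and 12.9 CPM in B6 Ccl5-high cells. The Ccl5-low sums given above, 28.6 to 87.0 CPM, were higher, but Cd8b1 itself is part of them. The part of thymocytes in the higher Cd4, Cd8b1, Ccr7 and early genes was not tested. The cell filter above took 0 Ccl5-low cells of BALB/c 1 and 1 of BALB/c 2, so it could not test this in BALB/c. Under that filter Cd4 was higher by 1.54 and Cd8b1 by 1.18.

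Most genes of the S100 and Ms4a list were lower. Of 14 tested, 11 were lower and 1 higher (median log2 change -0.43). The calcium-binding protein gene S100a4 was at 158, 227, 109 and 99.8 CPM in Ccl5-low cells against 628, 699, 556 and 501 CPM in Ccl5-high cells (-2.14, SE 0.07, adjusted p = 7.12e-16). S100a6 was lower by -1.47 and the intermediate filament gene Vim by -1.21. Among the genes of largest change at 20 CPM or more, the epoxide hydrolase Ephx1 was higher by 1.34, the CGRP receptor subunit Ramp1 by 1.21, the creatine kinase Ckb by 1.46 and the survival gene Bcl2a1d by 0.96. The potassium channel gene Kcnj8 was lower by -2.03 and the protease inhibitor gene Reck by -2.49. Other lists moved in both directions. Of 16 glycolysis genes 3 were higher and 2 lower, of 13 heat shock chaperones 2 and 2, of 18 survival and death genes 4 and 2, of 30 cytokine receptor and signalling genes 8 and 5, and of 50 interferon response genes 8 and 5.

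The 5 lower genes of the interferon list included Ifitm1, Ifitm2 and Ifitm3, neighbours on chromosome 7 whose membrane proteins restrict virus entry. Ifitm2 (ENSMUSG00000060591, 140954837 to 140955987) was at 110, 131, 28.8 and 15.6 CPM in Ccl5-low cells, against 480, 567, 373 and 214 CPM in Ccl5-high cells. Ifitm3 (ENSMUSG00000025492, 141009586 to 141010770) was at 97.4, 85.3, 20.5 and 16.7 CPM against 313, 297, 166 and 134 CPM. Neither gene's subsets overlapped, and they were lower by -3.13 (SE 0.17) and -2.57 (SE 0.14). Ifitm1 was lower by -4.96 (SE 0.36), at 1.03, 6.19, 3.73 and 0.264 CPM against 153, 68.7, 23.9 and 41.9 CPM. The size of its change thus rests on very low Ccl5-low levels. Because these Ifitm genes move together, their RefSeq promoter windows (GRCm38.p6, 250 bases before to 50 after the start) were searched on both strands. The motif sought was the core of interferon-stimulated response elements, GAAA followed by any 2 bases and GAAA again. This motif occurs in 3.44% of all 32851 windows. Ifitm2 holds 1 match and Ifitm3 holds 2 that do not overlap, while the motif is not in the Ifitm1 window. The matches are shown in capitals within 30 bases on the gene's strand, at chr7:140955988-140956017 (minus strand) for Ifitm2 and chr7:141010715-141010744 (minus strand) for Ifitm3.
Ifitm2: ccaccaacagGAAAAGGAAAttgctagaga
Ifitm3: agGAAAAGGAAActtctgaGAAACCGAAAc
The Ifitm2 match spans bases -46 to -37 from the RefSeq start, and the Ifitm3 matches bases 3 to 29 after it, inside the first exon. The reference is of B6 origin, and a match does not show a working site.

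Ccl5-low cells also differed among themselves. Over cells thinned to 4000 UMIs, the variance of a gene's counts was divided by the mean (the Fano factor, 1 for pure counting noise), and 6182 genes with a mean of at least 0.05 in each library were ranked. Gzmb had Fano factors of 5.10, 3.71, 5.03 and 4.71, and S100a6 of 4.02, 4.54, 4.95 and 4.03. Klf2 had 2.86, 4.19, 3.39 and 2.87 and was among the 35 most variable genes in each library. The Ly49 genes Klra7, Klra3 and Klra5, which are switched on in part of the cells, ranked 18, 23 and 23 at worst. Ifitm2 and Ifitm3 ranked 11 and 27 at worst. The ranking was led by Gm42418, Lars2 and T cell receptor beta segments, the last of which differ between clones.

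T cell receptor beta usage was compared between the subsets and between the strains. iNKT cells mostly pair their alpha chain with beta chains of Trbv13, Trbv29 or Trbv1. Trbv13 was the leading segment in 70.1%, 68.9%, 71.8% and 72.2% of typed Ccl5-low cells (137, 305, 937 and 3726 cells) and in 70.1%, 68.3%, 70.2% and 73.5% of Ccl5-high cells. The mean difference was 0.225 points, from -1.30 to 1.64 across libraries (exact two-sided permutation p = 0.75 over 4 pairs, where the smallest possible is 0.125). For Trbv29 it was -1.35 points, from -5.05 to 0.571 (exact permutation p = 0.5), and for Trbv1 -0.237 points, from -2.29 to 2.65 (exact permutation p = 0.875). For each segment the libraries differed in direction. Between strains, Trbv29 was in 8.03% and 11.1% of BALB/c and 14.0% and 14.6% of B6 Ccl5-low cells, and Trbv1 in 13.9% and 12.1% of BALB/c and 10.1% and 9.31% of B6 cells (exact permutation p = 0.333 each, the smallest possible).

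The strains were next compared within the Ccl5-low cells, so that the unlike share of Ccl5-high cells does not enter. edgeR's quasi-likelihood test on 2 BALB/c and 2 B6 sums covered 10109 genes, and 255 passed (2.52%), 146 higher in BALB/c (1.44%) and 109 lower (1.08%). The count was 462 with the replicate number as a block, and 13 and 1 without BALB/c 1 or BALB/c 2, where the lone library is assumed to vary like the others. In each alternative all of the 255 genes that could be fitted kept their direction. Tbx21 averaged 163 ± 8.13 CPM in the BALB/c libraries and 173 ± 15.8 CPM in those of B6 (SD, n = 2 each; log2 change -0.08, SE 0.13, adjusted p = 0.85).

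Ifng and Csf1 were higher in BALB/c Ccl5-low cells. Ifng was at 54.0 and 47.5 CPM in BALB/c against 20.9 and 22.6 CPM in B6 (log2 change 1.20, SE 0.17, adjusted p = 0.0131). Csf1 was at 21.8 and 14.8 CPM in BALB/c and 4.51 and 5.23 CPM in B6 (1.84, SE 0.32, adjusted p = 0.0331). Neither overlapped between strains, but among cells with at most 1 UMI of the iNKT2 sum the changes were 0.96 (adjusted p = 0.131) and 0.77 (adjusted p = 0.645). Without BALB/c 1 or BALB/c 2, Ifng stayed higher but did not pass (adjusted p = 0.229 and 0.305). Il4 was at 38.4 and 39.9 CPM in BALB/c against 57.7 and 64.5 CPM in B6 and did not pass (-0.64, SE 0.15, adjusted p = 0.0945). The T-box factor Eomes was at 30.1 and 18.4 CPM in BALB/c and 0.436 and 0.0667 CPM in B6. In all, 2 of 12 cytokines and chemokines tested were higher and none lower.

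Klf2 in Ccl5-low cells was at 218 and 345 CPM in BALB/c against 161 and 136 CPM in B6, a change of 0.94 that did not pass (SE 0.22, adjusted p = 0.0877), though it did in DESeq2 (adjusted p = 0.00742). Without BALB/c 2 the change was 0.54 (adjusted p = 0.598), and in cells with at most 1 UMI of the iNKT2 sum 0.61 (adjusted p = 0.353). Itga4 was at 32.2 and 48.8 CPM in BALB/c and 26.3 and 14.7 CPM in B6 (1.07, adjusted p = 0.187). Of 22 egress and homing genes tested, 2 were higher and none lower. One of them was the inflammatory chemokine receptor Ccr2, at 81.0 and 83.8 CPM in BALB/c against 52.2 and 49.9 CPM in B6 (0.70, edgeR adjusted p = 0.0434). Ccr2 did not pass with DESeq2 (adjusted p = 0.0549), in thinned cells (0.0981), with the cut below 2 UMIs (0.0612), in cells with at most 1 UMI of the iNKT2 sum (0.435), or without BALB/c 1 (0.383) or BALB/c 2 (0.543).

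On the list of lineage and T cell transcription factors, which does not hold Zfp683 or Hopx, 2 of 31 were higher in BALB/c and none lower. On the residency and maturation list, 2 of 14 were higher and 2 lower, with a median log2 change of 0.32. Tcf7, the TCF-1 factor of early and memory T cells, was at 185 and 158 CPM in BALB/c against 87.2 and 81.7 CPM in B6 (1.01, SE 0.14, adjusted p = 0.0115). Zfp683 was at 102 and 99.9 CPM in BALB/c against 282 and 254 CPM in B6 (-1.41, SE 0.13, adjusted p = 0.00273), and Hopx at 139 and 133 CPM against 286 and 257 CPM (-0.998, SE 0.13). For both the strains did not overlap. The activation and retention marker Cd69 was higher by 1.25, and, from the SLAM list, Slamf6 by 1.83.

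**Figure D4:**
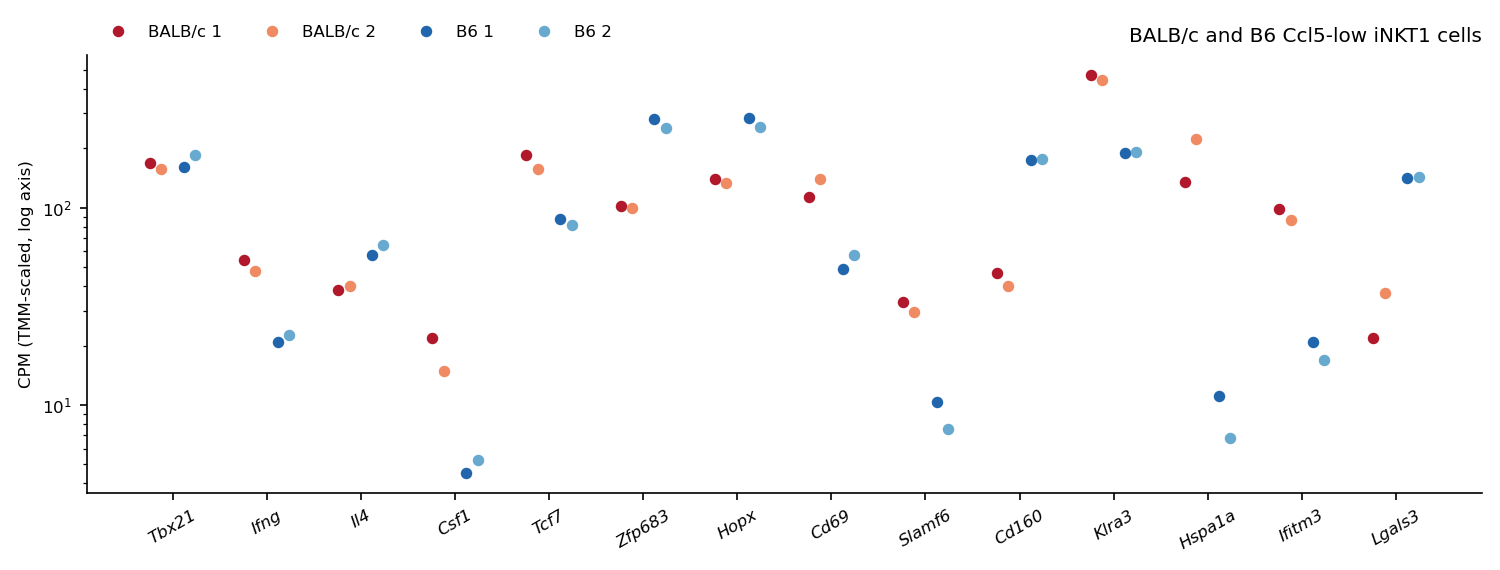
TMM-scaled CPM of 14 genes in Ccl5-low iNKT1 cells of BALB/c 1 and 2 (red tones) and B6 1 and 2 (blue tones), on a log axis. Ifng, Csf1, Tcf7, Cd69, Slamf6, Klra3, Hspa1a and Ifitm3 are higher and Zfp683, Hopx, Cd160 and Lgals3 lower in both BALB/c libraries, while Tbx21 overlaps.

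Natural killer receptors differed in both directions, with 2 of 21 higher and 5 lower in BALB/c. Klrb1c, which encodes NK1.1, was at 11.4 and 9.86 CPM in BALB/c against 569 and 521 CPM in B6. Cd160 was at 46.7 and 39.9 CPM in BALB/c against 174 and 176 CPM in B6 (-2.04, SE 0.14, adjusted p = 0.000689), and Klre1 was lower by -0.96. Of 8 Ly49 genes tested, 3 were higher, Klra3 (1.27), Klra5 (1.67) and Klra7 (1.90), and 3 lower, with Klra9 at -6.81. The strains carry different Ly49 and Klrb1 haplotypes, and the mm10 build derives from B6, so these levels are uncertain. Klra7 was named after its value was seen.

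Heat shock chaperones were higher in BALB/c Ccl5-low cells, 7 of 13 tested, none lower, with a median log2 change of 1.19 against -0.02 over all genes. Hspa1a, the inducible Hsp70, was at 135 and 222 CPM in BALB/c against 11.05 and 6.80 CPM in B6 (4.42, SE 0.32, adjusted p = 0.000753). Hsph1 was higher by 1.55 and Dnaja1 by 1.28. Hspa1a and its neighbour Hspa1b (4.09) are near-identical copies. Of 25 TCR signalling genes, 18 glycolysis genes and 18 survival genes, none passed either way. Only 2.52% of all genes tested passed, so this does not show that the strains are alike for these short lists. Of 53 interferon response genes, 3 were higher and 6 lower.

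The genes of largest strain difference at 20 CPM or more included Pianp, with 156 UMIs in BALB/c and 1 in B6 Ccl5-low cells (count ratio 1695, 95% interval 300 to 67382), Ly6c1 (7.72), the secretory chaperone Scg5 (5.16) and adenosine deaminase Ada (3.27; 61.2 and 66.8 against 6.83 and 6.57 CPM). On the lower side stood Trim12a, with 0 UMIs in BALB/c and 3191 in B6 (at least 97.9-fold lower, taking 3 counts in the whole group as the limit), Coro2a (3 against 8936 UMIs, 274-fold lower, 94 to 1329), Ly6e (-2.91) and the antiviral deaminase Apobec3 (-2.88). The intervals of these ratios pool the libraries of a strain and reflect counting alone, without the variation from library to library. Strain differences that map to close copies or to sequence unlike the B6 reference were not tested apart from expression.

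The last comparison asked whether the strain difference in Ccl5-low cells differs from that in Ccl5-high cells. An interaction term over all 8 sums passed for 42 of 9614 genes (0.437%), 34 with a more positive BALB/c minus B6 difference in Ccl5-low cells and 8 with a more negative one. Outside the genes of the gate these were 39 genes, 32 and 7. Ifng (0.01, SE 0.17, edgeR adjusted p = 1) and Klf2 did not pass (0.13, SE 0.08, adjusted p = 0.817). A term that does not pass does not show that the strain differences are alike. The Ccl5-high sets also differed in make-up between strains. Their median cell had 51 and 37 UMIs of Ccl5 and Gzma in BALB/c, against 21 and 18 in B6. Those with 4 to 7 such UMIs were 9 of 117 and 22 of 221 in BALB/c, and 67 of 279 and 189 of 830 in B6. The part of this make-up in the interaction terms was not tested.

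Ifitm2 had the lowest p. In Ccl5-low cells it was at 109 and 131 CPM in BALB/c against 28.8 and 15.5 CPM in B6, and in Ccl5-high cells at 478 and 567 CPM in BALB/c against 373 and 213 CPM in B6. The log2 strain difference was larger by 1.63 in Ccl5-low cells (SE 0.11, adjusted p = 1.63e-09). Ifitm3 followed with 1.25 (SE 0.13, adjusted p = 4.56e-06), at 97.2 and 85.2 CPM in BALB/c against 20.5 and 16.7 CPM in B6 Ccl5-low cells. Klra5 (1.03) and Klra7 (0.83) of the Ly49 family had the same sign. Id2 was lower in BALB/c in both subsets, at 1008 and 1093 against 1505 and 1478 CPM in Ccl5-low cells and 675 and 648 against 1332 and 1244 CPM in Ccl5-high cells, so its strain difference was smaller in Ccl5-low cells (0.47, SE 0.06).

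On the negative side Lgals3, which encodes galectin-3, was at 21.5 and 36.2 CPM in BALB/c against 139 and 141 CPM in B6 Ccl5-low cells, and at 125 and 140 CPM in BALB/c against 249.5 and 256 CPM in B6 Ccl5-high cells. The strain difference was thus wider in Ccl5-low cells (-1.25, SE 0.17, adjusted p = 0.000146). Gzmc, a granzyme, had -1.96 (SE 0.37), at 1.02 and 11.9 CPM in BALB/c against 15.3 and 25.3 CPM in B6 Ccl5-low cells; it did not pass without BALB/c 2 (adjusted p = 0.868) or B6 2 (0.495), in thinned cells (-0.82) or with the cut below 2 UMIs (-1.32). Ifitm10 (-0.51), Hopx (-0.45) and Klra3 (-0.43) were smaller. Among the 42 genes, 32 have a RefSeq promoter window and 3 of these hold the same motif. They are Ifitm2, Ifitm3 and B2m, the light chain of MHC class I. All 3 had a positive term (0.20 for B2m), as had 34 of the 42 genes. The B2m match is shown on the plus strand at chr2:122147538-122147567, where it spans bases -139 to -130.
B2m: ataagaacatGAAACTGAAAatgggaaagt
B2m and the genes with promoter windows were singled out after their values were seen. The motif was taken up for the Ifitm genes, so the matches of Ifitm2 and Ifitm3 were known before this count. The 3.44% is a share of windows, while the 3 of 32 counts genes with a match in any of their windows. These are unlike units, no test was run, and no excess can be read from them.

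**Figure D5:**
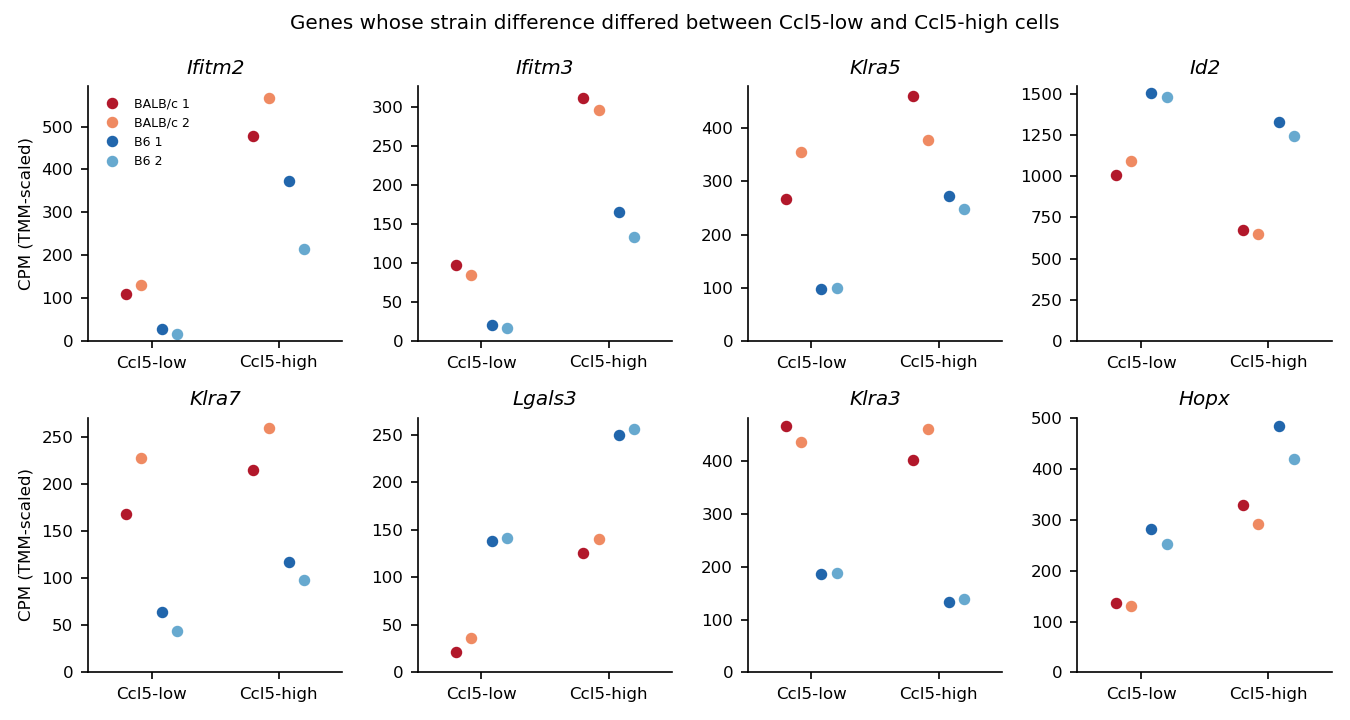
TMM-scaled CPM of 8 genes in Ccl5-low (left) and Ccl5-high (right) iNKT1 cells, with 1 point per library and axes from 0. For Ifitm2 and Ifitm3 the ratio of the BALB/c to the B6 points is larger in Ccl5-low cells than in Ccl5-high cells, although the gap in CPM is wider in Ccl5-high cells, and for Id2 the strains lie closer in Ccl5-low cells.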

How the data were processed

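Libraries were made with a droplet-based 5' kit, per the labels' protocols. The authors deposited UMI counts per gene and barcode as whole numbers, not normalized, made with Cell Ranger on mm10, per the file headers and the submitters' processing notes. Matrix headers name Cell Ranger 6.0.0 for 3 libraries and 7.1.0 for B6 2, and the processing notes 7.1.0; the counting settings are not given in the sources used here. Cells were gated as described, and UMIs were summed per library and subset. Genes of low count were removed by filterByExpr, sums were scaled by TMM, and edgeR 4.0.16 in R 4.3.3 gave quasi-likelihood tests with Benjamini-Hochberg adjustment (0.05). The standard error is the absolute log2 change over the square root of F. All fits ran on the whole gene table and were tested on simulated data. Doublets were not removed in the main analysis; the highest scores (0.8% per 1000 barcodes, scanpy 1.11.5) were left out as an alternative. Members and gene lists were chosen with earlier results of these data known. Named genes were up to 4 called members of lowest p per list, a set list of iNKT genes, and the 10 largest changes each way at 20 CPM or more that did not overlap (strain) or had 1 direction in all 4 libraries (subset), and for the interaction the 5 of lowest p each way; receptor segments, H2, sex-linked and predicted genes were skipped in these last parts. DESeq2 1.42.0, other scaling, filters, cuts, depth and left-out libraries were alternatives.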

Additional observations from a re-analysis of the deposited data

Results flagged for a closer look

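For 10 genes the BALB/c minus B6 difference in Ccl5-low cells differed from that in Ccl5-high cells of the same libraries by the interaction term of edgeR's quasi-likelihood test. On the log2 scale the term was 1.63 for Ifitm2 and 1.25 for Ifitm3. It was 1.03 for Klra5 and 0.83 for Klra7, members of a family with strain-specific haplotypes, and 0.47 for Id2. It was -1.25 for Lgals3, -1.96 for Gzmc, -0.51 for Ifitm10, -0.45 for Hopx and -0.43 for Klra3. Klra5 was at 267 and 356 CPM in BALB/c against 97.4 and 99.8 CPM in B6 Ccl5-low cells, and at 461 and 378 CPM in BALB/c against 272 and 247 CPM in B6 Ccl5-high cells. Ifitm10 was at 148 and 136 CPM in BALB/c against 204 and 177 CPM in B6 Ccl5-low cells, and at 265 and 228 CPM in BALB/c against 227 and 221 CPM in B6 Ccl5-high cells. Gzmc was at 2.61 and 30.1 CPM in BALB/c against 13.6 and 15.2 CPM in B6 Ccl5-high cells. Each rests on 2 libraries per strain and on Ccl5-high sets whose Ccl5 and Gzma counts differ between the strains.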

How the results depend on the processing

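Alternatives moved counts of genes more than directions. The 255 genes differing between strains became 992 with no filter on low counts (40.6% of them higher in BALB/c, against 57.3%), 151 in cells with at most 1 UMI of the iNKT2 sum and 462 with the replicate number as a block. Same-numbered libraries did not deviate together (r = -0.015 across genes). With 2 libraries per strain this is 1 correlation, so it cannot decide whether the numbers pair them. Without B6 1, the only B6 library was B6 2, counted with Cell Ranger 7.1.0, while both BALB/c libraries were counted with 6.0.0. Strain and version cannot be told apart in that strain fit, so its gene count does not measure strain alone. Leaving out 1 library gave 1 to 2355 genes, with 13 without BALB/c 1, 1 without BALB/c 2, 2355 without B6 1 and 770 without B6 2. The 1117 genes differing between Ccl5-low and Ccl5-high cells became 524 with DESeq2, 602 in the low-iNKT2-sum cells, 256 without the library block and 630 (without B6 2) to 1283 with 1 library left out. The 42 interaction genes became 17 with DESeq2, which gave no adjusted p for 7455 genes, 68 without the filter, 79 with the cut at 8, 16 in the low-iNKT2-sum cells, and 34 to 88 (without BALB/c 1) with 1 library left out. The Trbv13 difference was -0.80 points with the cut below 2, -1.10 with the cut below 8 and -0.25 to 0.73 with 1 library left out. In the low-iNKT2-sum cells 1032 of the 1034 genes that had passed between subsets and could be tested kept their direction. Among the genes named here, the other signs that turned belonged to values that passed no test. Tbx21 between strains was -0.18 to 0.0056 with 1 library left out, and between subsets -0.015 in thinned cells, -0.0034 with the cut below 2 and -0.015 to 0.070 with 1 library left out. The Ifng interaction was -0.099 and -0.0029 with the cut below 2 and below 8, -0.021 without cells holding other cells' markers, and -0.20 to 0.16 with 1 library left out. The Klf2 interaction was -0.015 in the low-iNKT2-sum cells and -0.13 to 0.25 with 1 library left out. The causes were not tested. BALB/c sums hold 965003 and 2308103 UMIs, which limits precision for low genes.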
